A study of Mus musculus with 12 samples.

Results

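The proteasome genes were taken as all rows whose symbol is Psma, Psmb, Psmc, Psmd, Psme, Psmf or Psmg followed by a number and whose mean over the libraries was at least 1 CPM (counts scaled to a common library total). The rule found 46 genes of 22618 in the table. They comprise 7 subunits of the alpha ring, 10 of the beta ring including those of the immunoproteasome, 6 ATPases and 14 other genes of the regulatory particle, and 9 genes for activators, an inhibitor and assembly chaperones. One further row matched the symbols and missed the level: Psma8, an alpha subunit known mainly from testis, averaged 0.937 CPM, against 4.19 CPM for Psmg4, the least abundant gene kept. Livers came from male mice without functional Cry1 and Cry2, the cryptochrome repressors of the circadian clock, sampled every 4 h from ZT2 to ZT22 with 2 libraries per time and 12 in all. Every mouse was of the C57BL/6j strain, was 12 to 16 weeks old, was fed at night and carried a conventional gut flora. ZT is zeitgeber time in hours, and ZT14, ZT18 and ZT22 are called night here because ZT12 is by convention the start of darkness. No wild-type library was analysed, so each comparison sets times of day against each other within the double mutant.

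The proteasome degrades proteins tagged with ubiquitin. Its barrel-shaped core is built of alpha rings, which gate entry, and beta rings, which hold the caspase-like, trypsin-like and chymotrypsin-like active sites. A regulatory particle with a ring of ATPases and a lid binds, unfolds and deubiquitinates the substrates. Interferon gamma and immune cells replace the 3 catalytic beta subunits with immunoproteasome forms, whose products feed antigen presentation on MHC class I. Liver cells also use the system to turn over metabolic enzymes and misfolded proteins, and the transcription factor NRF1 (Nfe2l1) raises subunit genes together when proteasome activity is short.

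Total exon counts ran from 34715506 to 46074052 in the 12 libraries, and the members had between 132 and 10230 counts each in a library. Levels below are CPM after scaling by TMM factors, which ran from 0.945 to 1.04. Hepatocyte markers were abundant in every library, with sums of 71407 to 80143 CPM at night and 77965 to 104314 CPM by day. The labels do not say whether the 2 libraries of a time came from separate mice, and if they did not, the p-values reflect technical spread alone. Cry1 had 5.71 to 13.6 CPM and Cry2 12.4 to 22.8 CPM of exon reads, which gene totals cannot assign to exons inside or outside a deletion, so the genotype was not checked.

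Across the day the proteasome genes were nearly flat. In edgeR's quasi-likelihood test for a 24 h rhythm, 1 of 46 members passed a Benjamini-Hochberg adjusted p of 0.05, against 12.0% of the 17142 genes tested, and 9 of 46 had an unadjusted p under 0.05, against 31.5% of all genes. The median fitted range, which divides the fitted level at the peak by that at the trough, was 1.13-fold over the members and 1.31-fold over all genes. The upper 95% limit of the range lay under 2-fold for 43 of 46 members and for 52.6% of all genes. A lower limit of 1 means that no rhythm is within the limits. The 3 members whose upper limit passed 2-fold were Psmb8, Psmb9 and Psmd14.

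No member passed the other tests with edgeR. For any difference between the 6 times, 0 of 46 members were called (4.82% of all genes) and 2 had an unadjusted p under 0.05 (24.8% of all genes). For this test limma-voom called 0 members and DESeq2 called 1 (2484 of all 17142 genes). Between night and day 0 members were called higher (4.80% of all genes) and 0 lower (4.89%). At an unadjusted p under 0.05, 5 members were higher at night (13.5% of all genes) and 1 was lower (13.1%). Between night and day limma-voom called 0 members. DESeq2 called 2 higher (978 of all 17142 genes) and 0 lower (1008). Across the onset of feeding and darkness, from ZT10 to ZT14, 0 were called higher (0.723% of all genes) and 0 lower (0.508%). At an unadjusted p under 0.05, 2 were higher (8.49% of all genes) and 0 lower (7.83%), with 0 calls by limma-voom and 1 higher by DESeq2 (338 of all 17142 genes). The heat map of all members by library shows mostly pale rows, with Psmb8 and Psmb9 as the 2 strongly coloured ones.

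**Figure D1:**
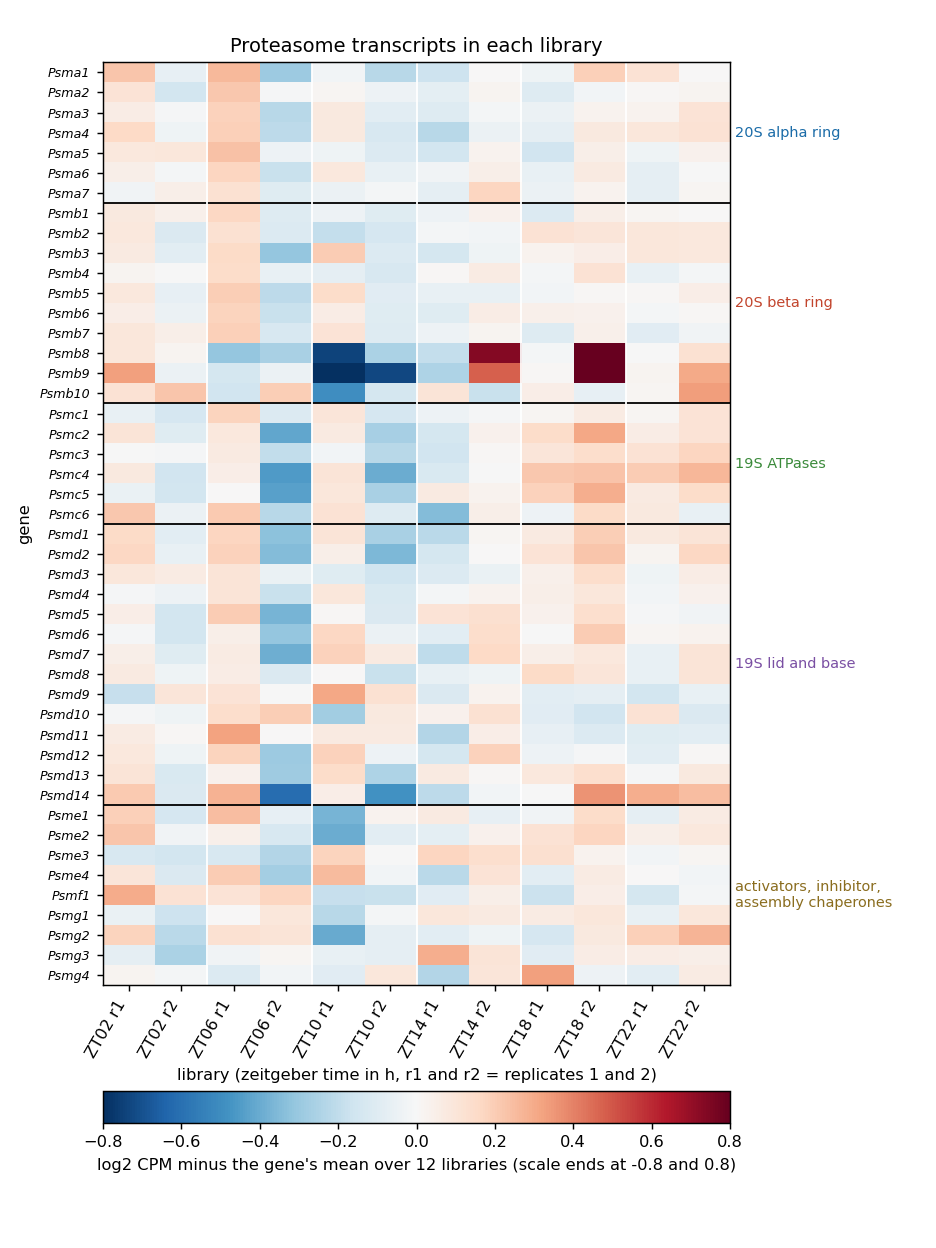
Each row is a proteasome gene, grouped by role, and each column a library in order of zeitgeber time; colour gives log2 CPM minus the gene's mean over the 12 libraries. Psmb8 and Psmb9 are darkest, blue at ZT10 and red in replicate 2 of ZT14 and ZT18, and many rows of the regulatory particle are blue in ZT06 replicate 2.

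Promoter sequence was taken from RefSeq (GRCm38.p6) for the 39 members found in its table, with 42 start sites in all. In the 250 bases before each start, on both strands, the ETS-family core CCGGAA stood in 18 of 42 windows (42.9%), against 12% of 32851 promoters. The core of the antioxidant response element, TGACNNNGC, which NRF1 and NRF2 bind, stood in 5 windows (11.9%, against 10.2% of all). Those 5 belong to Psmb5, Psmb6, Psmc6, Psmd9 and Psmd12. Heat shock units stood in 3 windows as GAANNTTC (7.14%, against 6.69%) and in 2 as TTCNNGAA (4.76%, against 7.17%), the E-box CACGTG in 4 (9.52%, against 6.02%) and CCAAT in 13 (31%, against 33.8%). A match describes the letters in the window and is not a measured binding site. The upstream bases of 4 genes are shown: Psmb5 and Psmb6 as catalytic subunits with a match to the antioxidant core near the start, and Psmc5 and Psme3 as the members with the 2 smallest p in the 24 h test. Capitals mark the motifs, on either strand; all 4 read 5′ to 3′ on the gene's own strand and end at or just before its first exon. For Psmb5 (chr14:54618023-54618245, minus strand) the antioxidant core lies near the 3′ end and a GAANNTTC unit near the 5′ end. For Psmb6 (chr11:70525107-70525356, plus strand) the antioxidant core forms the last bases. The Psmc5 stretch (chr11:106255935-106256153, plus strand) holds 1 ETS core. The Psme3 stretch (chr11:101315963-101316212, plus strand) holds a TTCNNGAA unit, 2 ETS cores, an E-box and a CCAAT box on the reverse strand.
Psmb5: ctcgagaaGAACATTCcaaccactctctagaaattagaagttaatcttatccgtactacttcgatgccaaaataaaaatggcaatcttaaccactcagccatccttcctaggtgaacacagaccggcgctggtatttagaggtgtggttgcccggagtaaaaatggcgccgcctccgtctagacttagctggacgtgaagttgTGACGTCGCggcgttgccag
Psmb6: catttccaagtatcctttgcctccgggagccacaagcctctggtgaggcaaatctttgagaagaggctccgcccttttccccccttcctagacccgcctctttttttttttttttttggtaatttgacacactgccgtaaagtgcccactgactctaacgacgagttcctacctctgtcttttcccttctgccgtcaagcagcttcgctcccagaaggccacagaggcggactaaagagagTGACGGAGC
Psmc5: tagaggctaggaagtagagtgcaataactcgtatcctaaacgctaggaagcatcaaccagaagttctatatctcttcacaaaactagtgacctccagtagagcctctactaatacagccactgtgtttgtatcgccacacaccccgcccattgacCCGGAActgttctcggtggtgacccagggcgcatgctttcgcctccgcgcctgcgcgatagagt
Psme3: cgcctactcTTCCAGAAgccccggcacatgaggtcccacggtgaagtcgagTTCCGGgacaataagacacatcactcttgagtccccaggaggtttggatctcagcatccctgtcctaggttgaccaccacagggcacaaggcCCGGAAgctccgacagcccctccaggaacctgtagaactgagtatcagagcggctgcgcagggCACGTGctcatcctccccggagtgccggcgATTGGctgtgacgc

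The genes of the alpha ring stayed level through the day. None of its 7 genes was called by edgeR, DESeq2 or limma-voom, and 0 had an unadjusted p under 0.05 in edgeR's 4 tests. The median range was 1.08-fold, and the upper limits of all 7 stayed between 1.18-fold and 1.54-fold. Psma1 had the largest fitted range of the ring and ran from 55.8 CPM (ZT06 replicate 2) through a median of 67.8 to 81.8 CPM (ZT06 replicate 1). Both extremes were libraries of the same time, and its range of 1.154-fold (95% limits 1 to 1.54) had an adjusted p of 0.486 in edgeR's 24 h test. Psma4 ran from 83.0 CPM (ZT14 replicate 1) through a median of 98.2 to 110.4 CPM (ZT06 replicate 1) with a range of 1.14-fold (adjusted p = 0.430, edgeR). Psma7 had the smallest range, 1.02-fold, and stayed within 65.2 to 78.6 CPM (median 68.9). Per kilobase of exon, Psma4 had the highest level of the ring, 83.4 ± 7.94 CPM per kb, and Psma2 the lowest, 20.6 ± 1.38 CPM per kb (SD, n = 12).

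The 7 standard beta subunits also stayed level. Psmb5, which carries the chymotrypsin-like site, ran from 39.2 CPM (ZT06 replicate 2) through a median of 45.2 to 52.1 CPM (ZT06 replicate 1), with 45.1 ± 1.36 CPM at night and 45.95 ± 4.98 CPM by day (SD, n = 6 libraries each). Psmb6, which carries the caspase-like site, ran from 73.3 CPM (ZT06 replicate 2) through a median of 84.2 to 93.9 CPM (ZT06 replicate 1), with 83.4 ± 3.17 CPM at night and 83.1 ± 7.35 CPM by day (SD, n = 6 libraries each). Psmb7, which carries the trypsin-like site, ran from 93.4 CPM (ZT06 replicate 2) through a median of 102 to 116 CPM (ZT06 replicate 1), with 99.9 ± 3.90 CPM at night and 105 ± 8.996 CPM by day (SD, n = 6 libraries each). Their fitted ranges had upper limits of 1.26, 1.21 and 1.26-fold. For all 3 the night libraries lay inside the spread of the day libraries. Their night-minus-day log2 differences were -0.03 ± 0.08, 0.01 ± 0.07 and -0.07 ± 0.07 (SE, edgeR), with adjusted p = 0.860, 0.969 and 0.574. Psmb6 had the smallest fitted 24 h range of all 46 members, 1.02-fold with an upper limit of 1.21. With the exon length of basic transcripts it also had the highest level per exon length of all members, 104 ± 6.77 CPM per kb. Psmb5 and Psmb6, shown above with a match to the antioxidant core, passed no test of time in these libraries. Whether these matches act in liver was not tested.

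**Figure D2:**
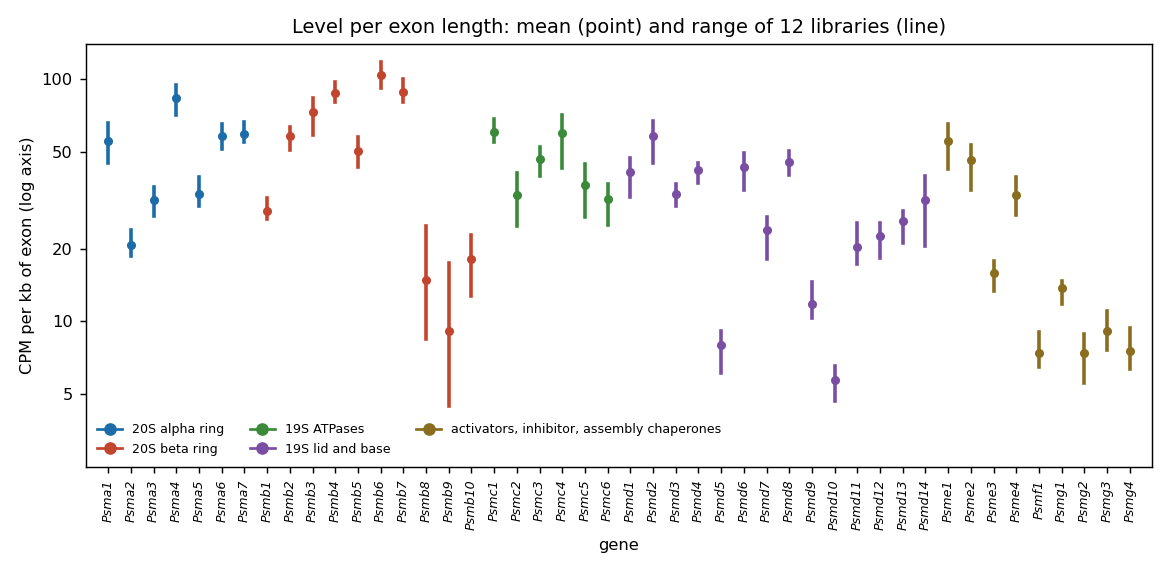
Level per kilobase of exon for each member on a log axis: points are means and lines span the lowest to the highest of the 12 libraries. Levels run from 5.72 (Psmd10) to 104 (Psmb6) CPM per kb, and the 3 immunoproteasome genes lie below all 7 standard beta subunits.

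Levels per exon length, drawn in the plot of CPM per kb, differed more between roles than any member differed between times. The median was 55.4 CPM per kb for the alpha ring, 73.0 for the 7 standard beta subunits, 41.8 for the ATPases, 28.8 for the other genes of the regulatory particle and 13.7 for activators, inhibitor and assembly chaperones. Exon length was taken from the basic transcripts of the annotation, and which transcripts liver cells use was not measured. The ranks of genes and roles per kb depend on this choice. With all annotated transcripts Psma6 was the highest member (54.2 CPM per kb, against 44.5 for Psmb6) and Psmg3 the lowest (2.77). The median of the ATPases then lay above that of the alpha ring. The 5 least abundant genes per kb were Psmd10, the inhibitor Psmf1, the chaperones Psmg2 and Psmg4, and Psmd5, at 5.72 to 7.98 CPM per kb; Psmd5 was named after its values were seen.

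Psmb8 and Psmb9, of the immunoproteasome, had the widest fitted ranges of all members. Psmb8, the replacement for Psmb5, had 24.6 and 23.5 (ZT02), 18.6 and 19.3 (ZT06), 13.8 and 19.4 (ZT10), 20.2 and 38.4 (ZT14), 22.8 and 40.2 (ZT18), and 23.0 and 25.2 (ZT22) CPM (replicates 1 and 2). Replicate 2 of ZT14 and ZT18 stood high, ZT10 replicate 1 was the lowest, and the remaining night libraries overlapped those of ZT02. Psmb8 was 0.52 ± 0.17 log2 higher at night (SE, edgeR adjusted p = 0.0839) and 0.82 ± 0.30 log2 higher at ZT14 than at ZT10 (adjusted p = 0.206), neither past the threshold. Its fitted 24 h range was 1.71-fold (limits 1 to 3.03, adjusted p = 0.120).

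Psmb9, the replacement for Psmb6, had 14.6 and 11.3 (ZT02), 10.6 and 11.3 (ZT06), 6.04 and 7.04 (ZT10), 9.82 and 16.2 (ZT14), 11.74 and 23.7 (ZT18), and 11.8 and 14.4 (ZT22) CPM. Both ZT10 libraries were its 2 lowest, and ZT18 replicate 2 and ZT14 replicate 2 its 2 highest. The night-minus-day difference was 0.57 ± 0.18 log2 (adjusted p = 0.0687), and the step from ZT10 to ZT14 was 0.995 ± 0.31 log2, both libraries of ZT14 above both of ZT10, with an adjusted p of 0.144 in edgeR. Its fitted range, 1.94-fold (limits 1 to 3.87), was the largest of all members. Psmb10, the replacement for Psmb7, ran from 16.7 CPM (ZT10 replicate 1) through a median of 24.1 to 29.7 CPM (ZT22 replicate 2). Its range was 1.32-fold with a peak at ZT23.3 (adjusted p = 0.143), and its night-minus-day difference was 0.08 ± 0.10 log2 (adjusted p = 0.632). Psmb10 was not high in the 2 libraries where Psmb8 and Psmb9 peaked: it had 20.8 CPM in ZT14 replicate 2 and 22.5 CPM in ZT18 replicate 2.

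The Psmb8 and Psmb9 differences rested in part on those 2 libraries. With ZT14 replicate 2 and ZT18 replicate 2 left out, an alternative chosen after seeing the data, Psmb8 was 0.18 log2 higher at night (edgeR adjusted p = 0.339) and Psmb9 0.23 log2 higher (adjusted p = 0.261). The step from ZT10 to ZT14 moved most with the ZT14 libraries: without replicate 2 it was 0.28 log2 for Psmb8 and 0.58 log2 for Psmb9 (edgeR adjusted p = 0.670 and 0.422), and without replicate 1 it was 1.21 and 1.31 log2 (adjusted p = 0.243 and 0.285), the single ZT14 library being assumed to vary like those of the other times. For night minus day, leaving out ZT14 replicate 1 gave Psmb8 an adjusted p of 0.0419, leaving out ZT18 replicate 1 gave Psmb9 0.0327, and DESeq2 called both (0.0190 and 0.0125). Psmb9 shares 212 bases of exon with Tap1 on the opposite strand, and Psmb8 shares 498 bases with the antisense gene Gm20496, which averaged 0.242 CPM. Of the standard counterparts, Psmb7 shares 405 bases with Nek6 on the opposite strand, which averaged 41.6 CPM. Psmb5 shares 109 bases with Mir686 on the same strand, which averaged 10.5 CPM. Whether counting used strand is not stated in those sources that were read, so reads from all these stretches are uncertain.

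**Figure D3:**
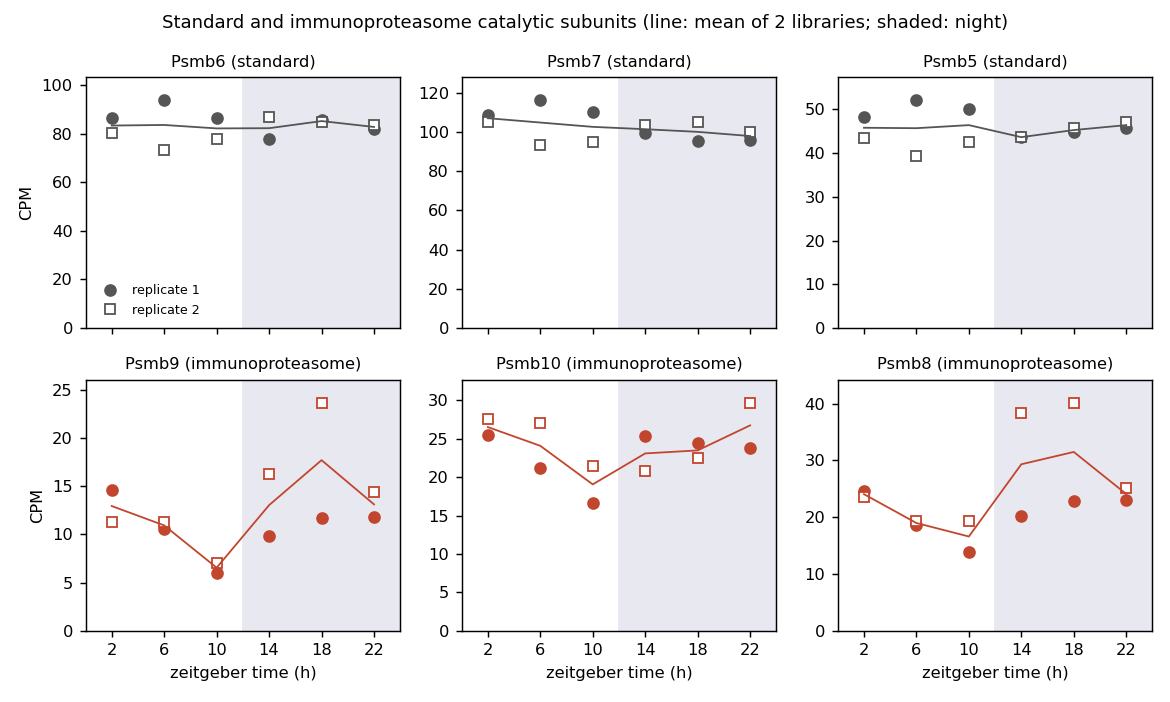
CPM of each standard catalytic subunit (upper row) and of its immunoproteasome counterpart (lower row) against zeitgeber time, with filled circles for replicate 1, open squares for replicate 2 and a line through the means of 2 libraries. The standard subunits stay near one level, and Psmb8 and Psmb9 are lowest at ZT10 with 1 high library each at ZT14 and ZT18.

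Set against its standard counterpart per exon length, each immunoproteasome form was the minor one in every library. Psmb8 made up 13.2% to 32.7% of the Psmb8 and Psmb5 total (median 21.9%). Psmb9 made up 3.96% to 14.1% of its pair with Psmb6 (median 7.74%), and Psmb10 11.8% to 20.8% of its pair with Psmb7 (median 17.6%). All 3 shares were lowest in ZT10 replicate 1. The Psmb8 share was 25.4% ± 5.71 at night and 19.4% ± 3.77 by day (SD, n = 6 each; two-sided exact permutation test p = 0.0649, 0.114 after adjustment over the 3 pairs). The Psmb9 share was 9.26% ± 2.63 and 6.72% ± 1.98 (exact permutation p = 0.0758, adjusted 0.114), and the Psmb10 share 17.8% ± 2.04 and 16.4% ± 3.15 (exact permutation p = 0.398, also after adjustment). None passed, and the size of each share depends on the exon length used: with all annotated transcripts the mean Psmb8 share was 12.3% in place of 22.4%, and the mean Psmb10 share was 31.8% in place of 17.1%.

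Genes that work with the immunoproteasome in antigen presentation were read beside it. Of 10 genes of MHC class I loading and interferon gamma signalling, 1 was called higher at night (4.80% of all genes) and 0 lower (4.89%). The gene higher at night was Tap1, which moves peptides into the endoplasmic reticulum and lies next to Psmb9. Tap1 had 24.6 and 22.4 (ZT02), 20.7 and 22.3 (ZT06), 16.3 and 13.3 (ZT10), 22.6 and 25.5 (ZT14), 25.0 and 34.1 (ZT18), and 21.2 and 28.7 (ZT22) CPM. It rose by 0.42 ± 0.11 log2 at night (SE, edgeR adjusted p = 0.0335) and, like Psmb9, was lowest at ZT10 and highest in ZT18 replicate 2. The call was kept in 10 of 21 alternatives (adjusted p from 0.00597 to 0.151) and was lost when any 1 of 8 libraries was left out, ZT14 and ZT18 replicate 2 among them. Its partner Tap2, named after its values were seen, showed the same 2 extremes with 0.36 ± 0.12 log2 at night (adjusted p = 0.0770). The MHC class I chains H2-K1 and B2m, also named after their values were seen, differed by -0.02 ± 0.07 and -0.09 ± 0.07 log2 (adjusted p = 0.868 and 0.497).

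Immune cells carry immunoproteasome, so their markers are given here; in bulk tissue fewer cells of a type and less RNA per cell cannot be told apart. The 9 lymphocyte markers summed to 15.1 to 28.6 CPM at night and 21.5 to 30.6 CPM by day, and 7 of 9 averaged under 1 CPM. The 6 markers of dendritic cells and antigen presentation summed to 113 to 225 CPM at night and 128 to 237 CPM by day, and the 7 macrophage markers to 245 to 393 CPM at night and 292 to 449 CPM by day. The lymphocyte sum is mostly Ptprc, which averaged 17.6 CPM, and the largest part of the dendritic sum is Cd74, which averaged 88.5 CPM. In the 2 libraries highest in Psmb8 and Psmb9, lymphocyte and dendritic sums were 21.7 and 122 CPM (ZT18 replicate 2) and 16.7 and 113 CPM (ZT14 replicate 2). The part of immune cells in the Psmb8 and Psmb9 values was not tested. Markers of pancreatic acinar cells, a neighbouring organ, summed to 20.9 CPM in ZT14 replicate 2 and to at most 4.46 CPM in the other libraries, with 0.334 CPM in ZT18 replicate 2. The part of that tissue in the Psmb8 and Psmb9 values of ZT14 was not tested; without that library the night-minus-day differences were 0.34 log2 for Psmb8 and 0.43 log2 for Psmb9 (edgeR adjusted p = 0.178 and 0.150).

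Of the 6 ATPases, which unfold the substrate and thread it into the core, 5 had fitted peaks between ZT16 and ZT24, as did 27 of 46 members and 32.7% of all genes. None was called by edgeR; 3 had an unadjusted p under 0.05 in the 24 h test, and DESeq2 called Psmc5. Psmc5 had 46.3 and 43.4 (ZT02), 48.0 and 35.4 (ZT06), 51.0 and 40.1 (ZT10), 50.5 and 49.0 (ZT14), 54.6 and 58.6 (ZT18), and 50.3 and 53.1 (ZT22) CPM. All 6 night libraries lay at or above 49.0 CPM and only ZT10 replicate 1 of the day libraries was as high. Its range was 1.32-fold (limits 1.06 to 1.69, peak ZT18.2, edgeR adjusted p = 0.0672) and its night-minus-day difference 0.26 ± 0.09 log2 (adjusted p = 0.0891). It passed the 24 h test with scaling by library totals (adjusted p = 0.0231), with DESeq2 (0.0353), without ZT06 replicate 1 (0.0375) and without ZT10 replicate 1 (0.0367).

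Psmc4 had 89.96 and 76.7 (ZT02), 88.2 and 62.1 (ZT06), 91.3 and 64.6 (ZT10), 78.2 and 84.8 (ZT14), 98.7 and 99.7 (ZT18), and 97.8 and 102 (ZT22) CPM. Replicate 2 of ZT06 and of ZT10 stood apart as the lowest libraries, and the ZT18 and ZT22 libraries were the highest. The range was 1.36-fold (limits 1.02 to 1.87, peak ZT20.1, adjusted p = 0.0983), and it too passed with library totals (0.0487) and without ZT10 replicate 1 (0.0329). Psmc3, named after its values were seen, ran from 81.9 CPM (ZT10 replicate 2) through a median of 95.8 to 108 CPM (ZT22 replicate 2) with a 1.199-fold range (adjusted p = 0.133) and passed the 24 h test in none of the 21 alternatives. Psmc1 had the smallest range, 1.03-fold, and the highest level of the ATPases, 60.7 ± 4.28 CPM per kb. Psmc6 had the lowest level, 32.0 ± 3.69 CPM per kb, and its highest mean was at ZT02. The 6 levels per exon length spanned 1.90-fold, the least of the 5 groups.

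Among the other 14 genes of the regulatory particle none was called by edgeR, DESeq2 or limma-voom, and 1, Psmd11, had an unadjusted p under 0.05 in edgeR's 24 h test. In all, 10 of 14 lay above 0 in the night-minus-day difference (median 0.06 log2). Psmd14, the metalloprotease that removes ubiquitin from the substrate, had the largest range. It had 55.4 and 44.3 (ZT02), 58.0 and 31.5 (ZT06), 49.8 and 34.2 (ZT10), 41.5 and 47.1 (ZT14), 47.9 and 61.5 (ZT18), and 58.6 and 56.8 (ZT22) CPM. ZT06 replicate 2 had the lowest value and ZT06 replicate 1 one of the highest, so its 2 libraries of 1 time spanned most of the whole spread. Its range of 1.38-fold (limits 1 to 2.23) had an adjusted p of 0.219 in edgeR's 24 h test, and its night-minus-day difference was 0.19 ± 0.15 log2 (adjusted p = 0.454).

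Psmd2, a large scaffold subunit of the base, ran from 133 CPM (ZT10 replicate 2) through a median of 175 to 199.6 CPM (ZT18 replicate 2) with a range of 1.21-fold (adjusted p = 0.316) and had the highest level of this group, 58.3 ± 7.56 CPM per kb. Psmd4, a ubiquitin receptor, stayed within 68.5 to 83.3 CPM (median 77.9) with a range of 1.06-fold (adjusted p = 0.758). Psmd12, a lid subunit, had the smallest range, 1.05-fold. Psmd10, known as gankyrin and an assembly chaperone of the base, had the lowest level, 5.72 ± 0.543 CPM per kb. Psmd11, a lid subunit whose amount can limit assembly, had the lowest night-minus-day difference of all members. It had 56.6 ± 3.67 CPM at night and 64.2 ± 5.59 CPM by day (SD, n = 6 libraries each), a night-minus-day difference of -0.18 ± 0.07 log2 (edgeR adjusted p = 0.146) and a fitted peak at ZT6.3; the groups overlapped, with ZT14 replicate 2 at 62.5 CPM among the day values.

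**Figure D4:**
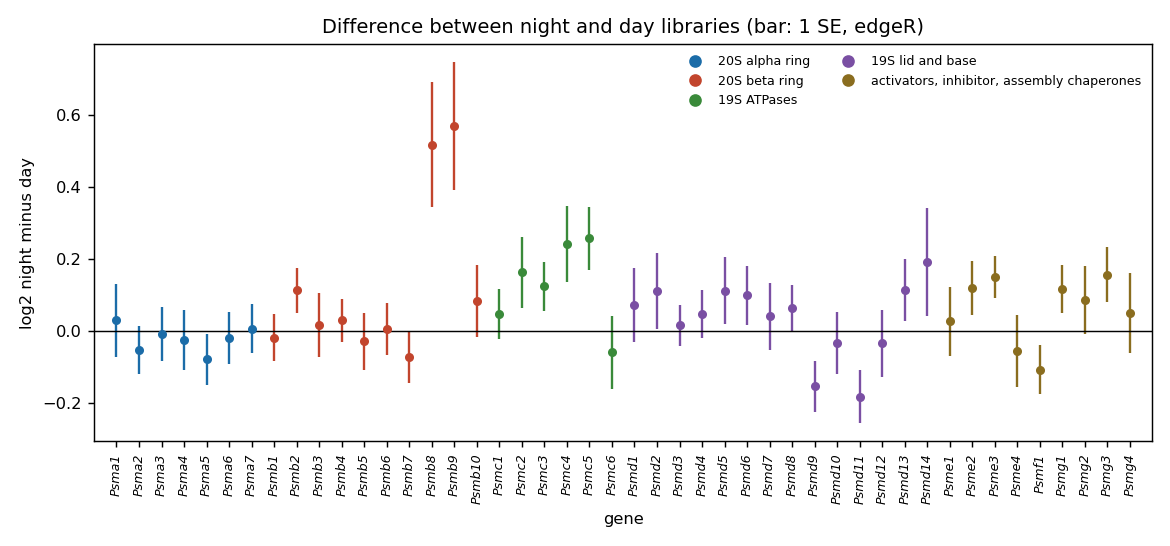
Log2 difference of night minus day for each member, with bars of 1 SE from edgeR, coloured by role. Psmb9 (0.57) and Psmb8 (0.52) lie highest with the longest bars, then Psmc5 (0.26) and Psmc4 (0.24), and Psmd11 (-0.18) lies lowest.

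The activators cap the core in place of the regulatory particle. Psme3, which forms a cap of the core found in the nucleus, was the 1 member called in the 24 h test. It had 38.4 and 37.9 (ZT02), 38.4 and 35.6 (ZT06), 47.5 and 41.9 (ZT10), 47.1 and 46.04 (ZT14), 45.8 and 42.7 (ZT18), and 41.2 and 42.3 (ZT22) CPM. The libraries of ZT10, ZT14 and ZT18 were all above those of ZT02 and ZT06, and the ZT22 libraries lay below those of ZT14 and ZT18 and overlapped ZT10. The range was 1.253-fold (limits 1.11 to 1.41), with a peak at ZT15.1 (edgeR adjusted p = 0.0479). Its night-minus-day difference, 0.15 ± 0.06 log2, did not pass (adjusted p = 0.132). The call lies at the threshold: it was lost in 17 of 21 alternatives, with its range between 0.28 and 0.40 log2 and its adjusted p between 0.0142 and 0.199 in all of them. Leaving out any single library other than ZT10 replicate 1 gave adjusted p = 0.0622 to 0.103, and leaving out ZT10 replicate 1 gave 0.0362.

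Psme1 and Psme2 form the interferon-inducible cap that often pairs with the immunoproteasome. Psme1 ran from 47.5 CPM (ZT10 replicate 1) through a median of 61.6 to 73.0 CPM (ZT06 replicate 1). Psme2 ran from 34.2 CPM (ZT10 replicate 1) through a median of 46.1 to 52.4 CPM (ZT02 replicate 1). Both were lowest in ZT10 replicate 1, as were Psmb8, Psmb9 and Psmb10. That library was the lowest for 10 of 46 members, with Psmb2, Psmd10, Psmf1, Psmg1 and Psmg2 also among them. Psme2 had a range of 1.23-fold (adjusted p = 0.150) and a night-minus-day difference of 0.12 ± 0.08 log2 (adjusted p = 0.346), against 0.03 ± 0.10 log2 for Psme1 (adjusted p = 0.883). A pseudogene row, Psme2b-ps, averaged 4.39 CPM, and reads that fit both it and Psme2 are uncertain. Per exon length Psme1 was the most abundant gene of this group, 55.7 ± 6.20 CPM per kb. Psme4, the large nuclear cap, had the smallest range of the group, 1.05-fold, over 179 to 256 CPM (median 214). Psmf1, an inhibitor of the core in the test tube, had 36.0 and 31.7 (ZT02), 31.7 and 33.0 (ZT06), 25.8 and 25.9 (ZT10), 27.5 and 30.2 (ZT14), 26.02 and 30.5 (ZT18), and 26.6 and 29.0 (ZT22) CPM. Its 4 highest libraries were those of ZT02 and ZT06, all at or above 31.7 CPM. The 24 h test gave an adjusted p of 0.245 and a range of 1.196-fold.

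The assembly chaperones Psmg1 to Psmg4, which pair up to build the alpha ring, were low and even. They averaged 14.3, 9.63, 8.03 and 4.19 CPM, with fitted ranges of 1.09, 1.23, 1.16 and 1.09-fold and adjusted p of 0.598, 0.287, 0.393 and 0.776 in edgeR's 24 h test. Psmg3 had the largest night-minus-day difference of the 4, 0.16 ± 0.08 log2 (adjusted p = 0.221).

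The members varied between the 2 libraries of a time as well as between times. The SD of log2 CPM within a time had a median of 0.139 over the members and the SD of the 6 time means a median of 0.0877. The first was the larger for 37 of 46 members, against 53.4% of all genes. A mean of 2 libraries varies less than a single library, so the second SD is the smaller even without any effect of time. The 2 SDs thus cannot say which variation was greater. The variation within a time was shared: replicate 1 was above replicate 2 for 42 of 46 members at ZT02, 38 at ZT06 and 33 at ZT10, and for 9 at ZT14, 8 at ZT18 and 10 at ZT22. Over all tested genes the same share was 46.6% to 50.5%. The gap was widest at ZT06, with a median of 0.30 log2 over the members. ZT06 replicate 2 was the lowest library for 21 of 46 members, 11 of them among the 20 genes of the regulatory particle, and ZT06 replicate 1 the highest for 17.

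These gaps kept their direction with library totals in place of TMM factors: replicate 1 was then higher for 32, 37, 28, 13, 18 and 16 members from ZT02 to ZT22. The library with the higher members had the lower TMM factor at each of the 6 times (0.953 against 1.03 at ZT06) and the larger total at 4 of 6, with 42018927 against 34715506 counts at ZT06. The part of depth or scaling in the gaps was not tested. The median night-minus-day difference of the members was 0.04 log2, above 0 for 31 of 46, against 0.00720 log2 over all genes. Without ZT06 replicate 2 it was -0.00426 log2, above 0 for 22 of 46, so the sign of that median turned with 1 library. The plot of group means by library shows the alpha ring, the standard beta subunits and the regulatory particle shifting together between libraries. The immunoproteasome genes moved apart from these, with a deep low point at ZT10 (-0.73 and -0.37 log2 in replicates 1 and 2). Over all members the ZT10 means were -0.04 and -0.13 log2. The time itself was not particular to them: ZT10 held the lowest mean of 20 of 46 members, more than any other time.

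**Figure D5:**
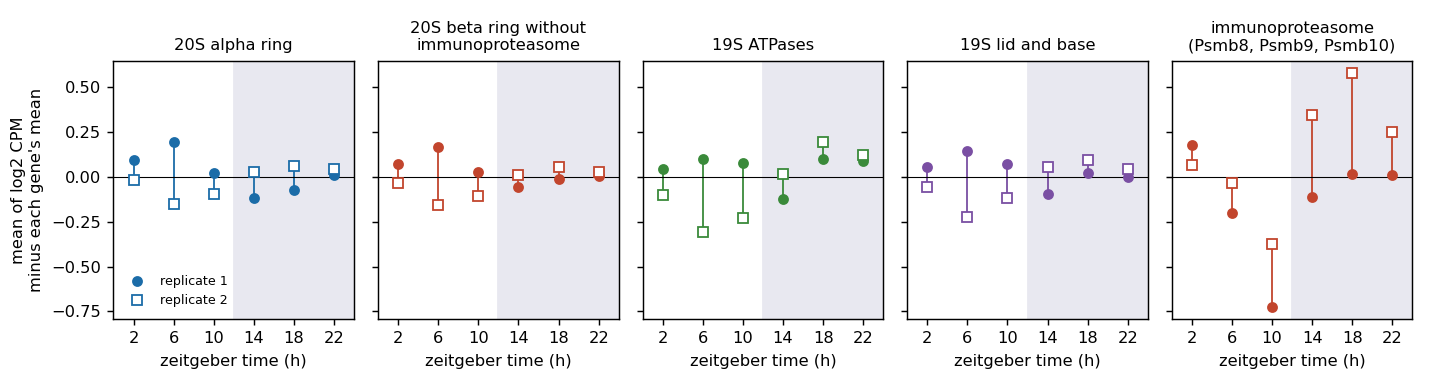
Mean of log2 CPM, each gene centred on its own mean, for 5 sets of members in each library; a thin line joins the 2 libraries of a time, filled circles are replicate 1 and open squares replicate 2. In the first 4 sets replicate 1 is above replicate 2 by day and below it at night, and the immunoproteasome set runs from -0.73 in ZT10 replicate 1 to 0.58 in ZT18 replicate 2.

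Genes around the proteasome were read from lists of its receptors, regulators, ubiquitin sources and extractors. The factors that set proteasome gene expression showed no call: Nfe2l1 had 116 ± 4.47 CPM at night and 125 ± 12.6 CPM by day (SD, n = 6 libraries each), edgeR adjusted p = 0.435, and Nfe2l2, its relative in the oxidative stress response, 70.6 ± 8.34 CPM at night and 65.6 ± 6.73 CPM by day (SD, n = 6 libraries each), adjusted p = 0.419. Pomp, the maturation factor of the core, had 71.5 ± 6.29 CPM at night and 67.5 ± 9.05 CPM by day (SD, n = 6 libraries each), adjusted p = 0.612. Adrm1, a ubiquitin receptor of the base, had 46.9 ± 2.28 CPM at night and 46.4 ± 4.28 CPM by day (SD, n = 6 libraries each), adjusted p = 0.904. In all 4 the night and day libraries overlapped.

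Of the 10 genes of assembly and regulation, 2 were called in the 24 h test (12.0% of all genes). Of these 2, 1 was called higher at night (4.80% of all genes) and 1 lower (4.89%). The 2 are relatives with zinc fingers that bind the proteasome. Zfand2a, the stress-inducible one, had 8.59 and 7.06 (ZT02), 10.4 and 8.57 (ZT06), 11.4 and 11.1 (ZT10), 15.9 and 16.2 (ZT14), 10.1 and 12.2 (ZT18), and 10.7 and 10.4 (ZT22) CPM. Both ZT14 libraries stood above all others. It rose by 0.39 ± 0.08 log2 at night (edgeR adjusted p = 0.0191), with a 24 h range of 1.76-fold peaking at ZT14.4 (adjusted p = 0.0113). The night call was kept in 16 of 21 alternatives (adjusted p from 0.00462 to 0.0914), and was lost when replicate 2 of ZT02 or of ZT18, or replicate 1 of ZT14 or of ZT22, was left out. Zfand5, which activates the proteasome in fasting muscle, had 72.9 and 62.2 (ZT02), 77.2 and 65.1 (ZT06), 73.1 and 51.2 (ZT10), 39.6 and 52.0 (ZT14), 47.3 and 47.9 (ZT18), and 48.3 and 44.8 (ZT22) CPM. Every day library except ZT10 replicate 2 lay above every night library. It fell by 0.52 ± 0.10 log2 at night (adjusted p = 0.0139), with a 1.64-fold range peaking at ZT5.5 (adjusted p = 0.0197). Its night call was kept in 20 of 21 alternatives (adjusted p from 0.000190 to 0.0516) and was lost without ZT18 replicate 1. The 24 h calls of Zfand2a and Zfand5 were kept without any single library and were lost in fits without pairs of libraries, 2 of these for Zfand2a and 3 for Zfand5.

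Of the 10 ubiquitin receptors and deubiquitinases, 1 was called in the 24 h test (12.0% of all genes), in the any-time test (4.82%) and higher at night (4.80%). It was Ubqln4, a shuttle that brings clients to the proteasome. Ubqln4 had 38.5 ± 6.64 CPM at night and 32.3 ± 5.12 CPM by day (SD, n = 6 libraries each), was 0.25 ± 0.06 log2 higher at night (edgeR adjusted p = 0.0318) and peaked at ZT14.5 with a 1.59-fold range. The night call was kept in 8 of 21 alternatives (adjusted p from 0.0194 to 0.108), and leaving out any 1 of 9 libraries, or the filter on low counts, lost it. Of the 7 genes of the p97 segregase and its cofactors, 1 was called in the same 3 tests, and it was lower at night (4.89% of all genes). Ube4b, a ubiquitin chain elongation factor, fell by 0.33 ± 0.06 log2 at night (edgeR adjusted p = 0.00898), from 63.9 ± 7.64 to 50.5 ± 5.04 CPM (SD, n = 6). The call was kept in 21 of 21 alternatives (adjusted p from 0.000299 to 0.0408). The 6 genes for ubiquitin and its activating enzymes had adjusted p of at least 0.170 in the 24 h test and 0.284 between night and day. In the same libraries 13 of 14 heat shock factor targets were called in the 24 h test (12.0% of all genes) and 11 higher at night (4.80%). This list was already known to move in these data. The 3 with the smallest p in the 24 h test were Hspb1, Ahsa1 and Hsph1, with ranges of 4.38, 1.84 and 5.51-fold, against 1.94-fold for the widest proteasome gene.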

How the data were processed

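The authors deposited 1 table of raw exon counts per gene without any scaling, from stranded, paired-end total RNA libraries depleted of rRNA, per the labels' protocols. The submitters' processing notes name STAR 2.4.0i and the build mm10; how reads were assigned to genes, and with which strand setting and annotation, is not given in the sources used here. Group and replicate of each library came from its label. Here edgeR 4.0.16 (R 4.3.3) was used: TMM scaling, filterByExpr by time (at least 10 counts, and 15 in total), leaving 17142 genes, then glmQLFit and glmQLFTest, once with cosine and sine of a 24 h period and once with the 6 times as groups. A call needs an adjusted p (Benjamini-Hochberg, over every tested gene) under 0.05. The SE of a contrast is its log2 difference over the root of F. Limits of a 24 h range are 95% limits from ordinary regression of log2 CPM (prior count 2; residual degrees of freedom 9). Exon lengths and positions are from GENCODE M21, promoters from RefSeq GRCm38.p6. Alternatives were DESeq2 1.42.0, limma-voom (limma 3.58.1), other scalings and filters, and left-out libraries. Each test was tested on simulated data. A count of 0 allows up to 0.0864 CPM in the smallest library (3 counts), counting error only.

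The members and lists were chosen with earlier results of these data known. Named with values were called members, in each group the 2 largest and the smallest 24 h range and the highest and lowest level per kb, the catalytic, activator and assembly genes, Psmd4, Psmd11 and Psmd14, 6 regulators, and up to 3 called genes of each pathway list by smallest p. Genes named outside this rule are marked as such. Some results that this rule would name are not reported here.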

Additional observations from a re-analysis of the deposited data

How the results depend on the processing

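The count of members called in the 24 h test was 1 in edgeR (12.0% of all genes). It was 0 with RLE factors (11.8%), 0 with no filter on low counts (7.91%), 3 with library totals only (13.7%) and 3 with DESeq2 (19.5%). When single libraries were left out it was 0 to 3, with 6.74% to 12.5% of all genes called. It was 0 in each of 3 fits that dropped a pair of libraries, where fewer genes were called in all. These pairs were ZT02 replicate 1 with ZT06 replicate 2 (3.20% of all genes), the reverse of these (7.18%), and ZT14 replicate 2 with ZT18 replicate 2 (3.20%). The last was chosen after seeing the data. DESeq2 called 1 member for any time difference, 2 higher at night and 1 higher at ZT14 than at ZT10, each 0 in edgeR. Over all 17142 genes DESeq2 called 2484, 978 and 338 in these 3 comparisons. Members called higher at night were 1 with library totals only and 0 to 1 when single libraries were left out. With a replicate block 0 members were called in the 24 h test (11.1% of all genes) and 1 higher at night, Psmb8 (adjusted p = 0.0476). Over all 17142 genes 1077 were called higher at night with library totals only and 795 with the block. Among the members replicate 1 was mostly above replicate 2 by day and below it at night. Over all tested genes same-numbered libraries varied together at few pairs of times. Correlations of their deviations ran from -0.18 to 0.27 over 15 pairs of times, 2 above 0.1, with 0.27 for ZT02 and ZT06. Those below 0 mean that not every library correlated best with its own number, so the numbers were not taken as pairing. The cause of these changes was not tested. No member was called lower at night, or lower at ZT14 than at ZT10, under any alternative run, and members of at least 5 CPM (45 genes) gave the counts of the main list. The mean immunoproteasome share was 12.8% for Psmb9 and 34.0% for Psmb8 in CPM without length, and 12.3% for Psmb8 and 31.8% for Psmb10 with all transcripts, because the lengths differ.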

Other observations

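Psma8, left out of the members by its level, had a lowest value of 0.422 CPM in ZT06 replicate 2, a median of 0.848 CPM and a highest value of 2.12 CPM in ZT06 replicate 1. Its 2 libraries of ZT06 thus held both extremes, and its night-minus-day difference was -0.75 ± 0.32 log2 (SE, edgeR adjusted p = 0.163).

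The pseudogene rows Psmb5-ps, Psmb6-ps and Psmb7-ps2 averaged 0.0538, 0.113 and 0.0739 CPM, far under their parent genes.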
